A study of Mus musculus with 5 samples.

Results

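A set of 9 genes of the complement system were followed in the right brain hemisphere of glioma-bearing mice: the C1q chains C1qa, C1qb and C1qc, the components C4b, C3 and Cfb, the receptors C3ar1 and C5ar1, and the inhibitor Serping1. They were taken by symbol and are 9 of the 55573 genes in the count tables. Of these, 8 had enough counts to be tested, and Cfb had not. The mice were C57BL/6 females, inoculated at 7 to 8 weeks of age in the right caudate-putamen with GL261, a mouse glioma line that here carried luciferase and mKate2. Vehicle mice (3 libraries) received inVivoPure dilution buffer. The others (2 libraries) received UMBO, ultrasound-mediated blood-brain barrier opening, in which low-intensity pulsed ultrasound is applied after an intravenous injection of microbubbles. Both groups were treated on days 21 and 24 and the hemisphere was collected 24 h later. Only mice whose tumor bioluminescence passed a cutoff were included, and those chosen for sequencing had tumors of comparable size by bioluminescence. Each library came from 1 mouse. The study's methods describe more mice than the 5 libraries analysed here, and whether vehicle mice received microbubbles is not given in the sources used here.

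Complement is a cascade of plasma and tissue proteins that tags targets for removal and calls in immune cells. C1q, built from 3 chains, starts the classical pathway when it binds a target, and C4 and C3 are then cleaved and deposited. The fragments C3a and C5a act through C3ar1 and C5ar1, receptors found mainly on myeloid cells. In the brain, microglia and macrophages are the main source of C1q, astrocytes can make C4 and C3, and complement takes part in the removal of synapses.

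The libraries held between 59736771 and 86164159 counted reads. UMBO replicate 2 stood apart: on the first principal component of all tested genes, which held 78.7% of the variance, it lay at 133.7, against -68.4 to 17 for the other 4. The fitted fold changes are therefore also given without it. Whole-hemisphere RNA mixes tumor, resident and infiltrating cells, so a larger number of cells of a type and more RNA per cell cannot be told apart.

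All 9 genes lie on the minus strand. The C1q genes sit side by side on chromosome 4 (GRCm38, 136880129 to 136898803), within 18.7 kb. C4b and Cfb lie on chromosome 17 with their relatives C4a and C2, between 34728380 and 34898265, and C3 is on the same chromosome at 57203970 to 57228136. RefSeq promoter windows (GRCm38.p6) were matched for 5 of the 9 genes; C1qa, C4b, Cfb and Serping1 had none. The 250 bases before the start site are shown for a C1q chain and for C3, the members with the closest and the loosest ties to the others in the profiles described later. Capitals mark the letters of a searched motif.
C1qb (chr4:136886201-136886450, minus strand): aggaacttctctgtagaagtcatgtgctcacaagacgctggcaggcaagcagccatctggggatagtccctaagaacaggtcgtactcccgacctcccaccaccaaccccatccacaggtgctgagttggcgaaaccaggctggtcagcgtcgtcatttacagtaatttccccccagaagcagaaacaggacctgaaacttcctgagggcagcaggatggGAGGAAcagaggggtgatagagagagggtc
C3 (chr17:57228137-57228386, minus strand): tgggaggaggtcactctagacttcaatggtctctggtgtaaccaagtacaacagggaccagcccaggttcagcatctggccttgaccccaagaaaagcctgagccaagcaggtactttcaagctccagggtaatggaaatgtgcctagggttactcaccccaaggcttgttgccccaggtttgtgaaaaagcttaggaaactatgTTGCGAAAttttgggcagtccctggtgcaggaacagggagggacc
The 5 motifs were searched on both strands of 300-base windows. The capitals in C1qb are GAGGAA, the core bound by the myeloid factor PU.1, which began 30 bases before the start site and is held by 28.3% of all 32851 windows. C1qc held the same core in the reverse direction (TTCCTC), 193 bases before its start site, but 60.4% of the 250 bases before that RefSeq start are exon in GENCODE M21, so its window is not shown. The capitals in C3 are TTGCGAAA, a match to the C/EBP motif TTGCNNAA, which 10.8% of windows hold. C5ar1 held 1 match to the interferon-response core GAAANNGAA, read in reverse, a motif of 8.56% of windows. It began 66 bases before the RefSeq start, which is inside the gene as placed by GENCODE M21. Of the 250 bases before that RefSeq start, 11.2% are exon in GENCODE M21. C3ar1 matched none of the 5. No matched member held TTCNNNGAA, the STAT motif of 8.3% of windows, or GGGNNTTCC, the kappa-B motif of 5.82%. These are matches of letters and not tested binding sites.

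C1q was the most abundant part of the set, and the mean level of each chain was 2.81- to 2.92-fold higher with UMBO, with wide spread among mice and a smaller difference without UMBO replicate 2. Levels are TMM-normalized CPM, read counts scaled to a common library size, and are given as mean ± SD. C1qa (chromosome 4, 136895917 to 136898803) was at 61.2, 222 and 83.9 CPM in vehicle replicates 1, 2 and 3, and at 194 and 519.6 CPM in UMBO replicates 1 and 2. The groups overlapped, because vehicle replicate 2 lay above UMBO replicate 1. The means were 122.5 ± 87.2 (n = 3) and 356.9 ± 230 (n = 2), a 2.91-fold ratio. The fitted log2 fold change was 1.54 (SE 0.66), with an unadjusted p of 0.0574 and an adjusted p of 0.497 by edgeR's quasi-likelihood test. It was 0.66 without UMBO replicate 2 and 2.33 without vehicle replicate 2.

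C1qb (136880129 to 136886187) was at 53.7, 175 and 78.0 CPM with vehicle and at 171.8 and 425.8 CPM with UMBO. Here vehicle replicate 2 and UMBO replicate 1 were nearly level, at a ratio of 0.982. The log2 fold change was 1.55 (SE 0.60, edgeR unadjusted p = 0.041, adjusted p = 0.497). The value was 0.75 without UMBO replicate 2 and 2.22 without vehicle replicate 2. C1qc (136889804 to 136893065) was at 47.9, 152.8 and 68.0 CPM with vehicle and at 156.9 and 346.9 CPM with UMBO. For C1qc the groups did not overlap, but UMBO replicate 1 exceeded vehicle replicate 2 by only 1.03-fold. Its log2 fold change was 1.49 (SE 0.57, edgeR unadjusted p = 0.0392, adjusted p = 0.497). This changed to 0.81 without UMBO replicate 2 and 2.16 without vehicle replicate 2.

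The chains kept nearly the same proportions in each mouse. Per kb of exon, C1qa made up 43.0% to 47.1% of the summed C1q signal with vehicle and 43.8% and 46.7% of it with UMBO. C1qb made up 35.4% to 38.2% with vehicle, against 37.1% and 36.6%, and C1qc 17.4% to 18.8%, against 19.1% and 16.8%. Each UMBO share of C1qa and C1qb lay inside the vehicle range, and those of C1qc lay just outside it, on opposite sides. The summed level of the 3 chains nevertheless ran from 163 to 1290 CPM over the 5 libraries, a 7.94-fold range.

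**Figure D1:**
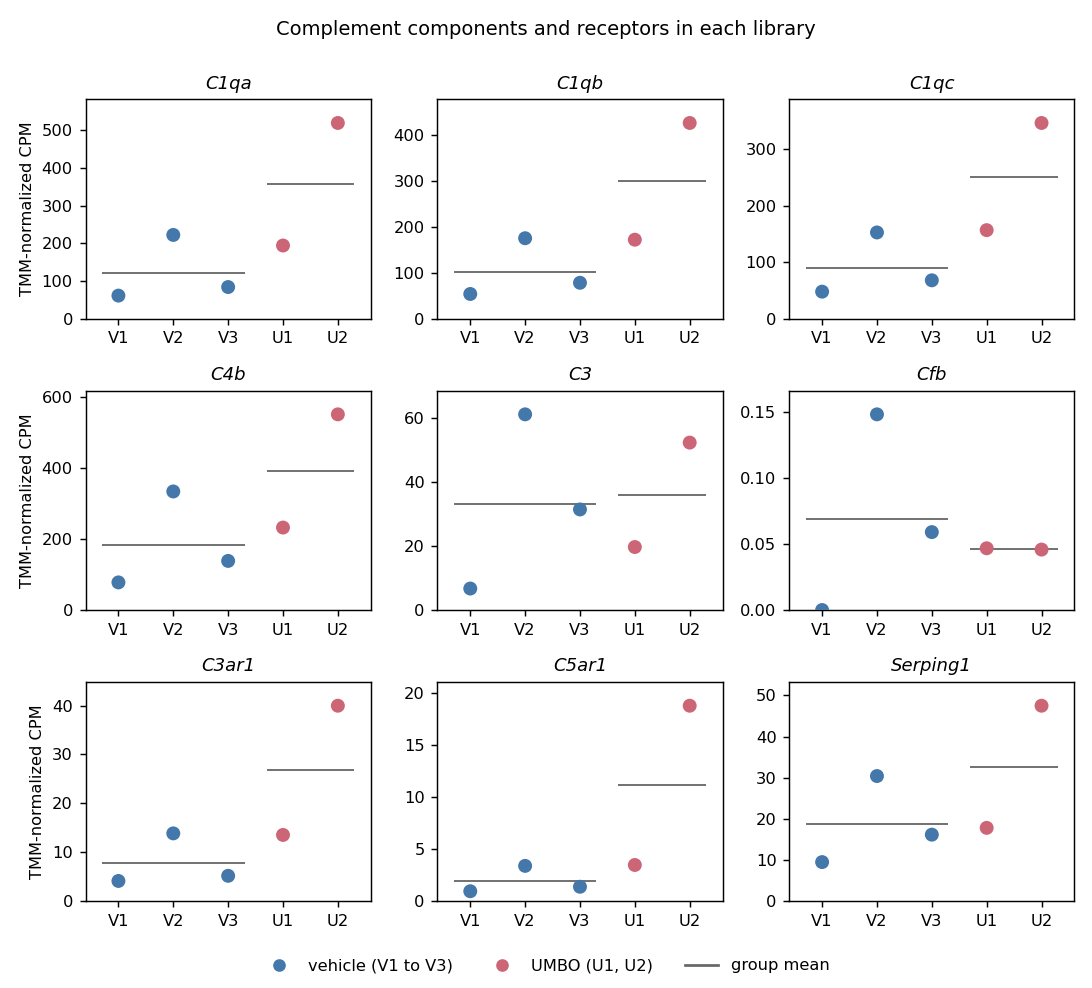
TMM-normalized CPM of the 9 complement genes in each library (one panel per gene, linear axes that start at 0; V1 to V3 are vehicle replicates 1 to 3, U1 and U2 are UMBO replicates 1 and 2; points are libraries and lines are group means). UMBO replicate 2 is the highest library for 7 genes, vehicle replicate 2 is the highest for C3 and Cfb, and UMBO replicate 1 lies near vehicle replicate 2 for the C1q chains and both receptors.

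Among the components cleaved downstream of C1q, the mean of C4b was higher with UMBO and that of C3 differed little. With a wide spread among mice, neither difference was resolved. C4b encodes complement C4, which is cleaved by the C1 complex (chromosome 17, 34728380 to 34743882). It was at 77.6, 333.2 and 138 CPM with vehicle and at 231.8 and 549.9 CPM with UMBO. UMBO replicate 1 lay below vehicle replicate 2 and above the other vehicle libraries. The log2 fold change was 1.10 (SE 0.66, edgeR unadjusted p = 0.15, adjusted p = 0.497). It became 0.34 without UMBO replicate 2 and 1.89 without vehicle replicate 2. Of the 100-base stretches in C4b transcripts, 15.2% also occur in C4a, so reads there could belong to either gene. C4a itself was at 2.73 to 3.39 CPM with vehicle and at 2.61 and 3.31 CPM with UMBO.

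C3, the central component on which all activation routes converge, was at 6.70, 61.0 and 31.4 CPM with vehicle and at 19.7 and 52.2 CPM with UMBO. Vehicle replicate 2 was the highest of the 5 libraries and both UMBO libraries lay inside the vehicle range. The vehicle mice alone differed 9.11-fold. The means were 33.0 ± 27.2 (n = 3) and 35.9 ± 23.0 CPM (n = 2), and the log2 fold change was 0.12 (SE 0.86). The edgeR unadjusted p was 0.893 and the adjusted p 0.947. The sign depended on single libraries, with -0.75 without UMBO replicate 2 and 0.95 without vehicle replicate 2. Its ratio to C4b also varied between mice. C3 counts per C4b count were 0.0863, 0.183 and 0.227 with vehicle and 0.0848 and 0.095 with UMBO.

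Cfb encodes factor B, the protease of the alternative pathway convertase (34856374 to 34862518). It had 0, 10 and 5 counts with vehicle and 4 and 3 counts with UMBO. The 0 counts of vehicle replicate 1 allow a level of up to 0.0401 CPM (3 counts, for counting error only). No difference was detectable at this depth, and no fold is given. In the annotation, 79.5% of the exon bases of Cfb are shared with Gm20547, a same-strand gene that also runs across C2 exons and had 0 counts in all 5 libraries. How reads in shared exons were counted is not given in the sources used here, so the Cfb and C2 levels are uncertain.

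The 2 anaphylatoxin receptors had the largest fitted differences of the set with all 5 libraries. When UMBO replicate 2 was left out, C3ar1 was level with C1qc. C3ar1, the receptor for C3a (chromosome 6, 122847138 to 122856161), was at 4.17, 13.9 and 5.22 CPM with vehicle and at 13.6 and 40.0 CPM with UMBO. UMBO replicate 1 and vehicle replicate 2 were again nearly level. The log2 fold change was 1.79 (SE 0.66, edgeR unadjusted p = 0.0347, adjusted p = 0.497). The same value was 0.81 without UMBO replicate 2 and 2.55 without vehicle replicate 2.

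C5ar1, the receptor for C5a (chromosome 7, 16246743 to 16259540), was at 0.976, 3.41 and 1.41 CPM with vehicle and at 3.50 and 18.8 CPM with UMBO. The groups did not overlap, but UMBO replicate 1 exceeded vehicle replicate 2 by only 1.03-fold, and the UMBO libraries differed from each other by 5.37-fold. The means were 1.93 ± 1.30 (n = 3) and 11.2 ± 10.8 CPM (n = 2). The log2 fold change was 2.53 (SE 0.82, edgeR unadjusted p = 0.0214, adjusted p = 0.497). It was 0.86 without UMBO replicate 2 and 3.26 without vehicle replicate 2.

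Serping1 encodes C1 inhibitor, which inactivates the C1r and C1s proteases of the C1 complex (chromosome 2, 84765387 to 84775444). It was at 9.53, 30.4 and 16.2 CPM with vehicle and at 17.8 and 47.5 CPM with UMBO. Vehicle replicate 2 lay well above UMBO replicate 1. The log2 fold change was 0.80 (SE 0.58, edgeR unadjusted p = 0.218, adjusted p = 0.516). The estimate was -0.07 without UMBO replicate 2 and 1.38 without vehicle replicate 2.

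None of the 8 tested members passed an adjusted p of 0.05 in edgeR, and neither did any of the 23592 genes tested (0%). DESeq2 passed 39 genes, 0.0965% of the 40435 it fitted, none of them a member. With an unadjusted p under 0.05, 4 members were higher with UMBO (C1qb, C1qc, C3ar1 and C5ar1) and 0 lower, where 5.30% of all genes tested were higher and 2.06% lower. All 8 had a log2 fold change above 0, against 50.9% of all genes. The groups did not overlap for 2 members (C1qc and C5ar1), both higher with UMBO, where 11.5% of all genes were without overlap and higher and 11.4% without overlap and lower. The median log2 fold change was 1.52 for the members and 0.012 for all genes. Members that share a chromosomal cluster or a cell of origin are not independent of each other. The members were also chosen with earlier results of these data known, so these shares are a description and not an independent comparison.

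These values turned on single mice. Without UMBO replicate 2 the median of the members was 0.71 and 0 members had an unadjusted p under 0.05, in a fit where 1.15% of all genes were higher and 0.71% lower at that level. Without vehicle replicate 2 the median was 2.19 and 7 members passed that unadjusted level, all but C3, in a fit where 9.36% of all genes were higher and 2.21% lower at it. Leaving out vehicle replicate 1 or vehicle replicate 3 also left 0 members under it, with 0.838% and 0.945% of all genes higher. Without UMBO replicate 1, C1qb, C1qc, C3ar1 and C5ar1 passed the adjusted threshold, but so did 18.3% of all genes tested in that fit. There the 1 remaining UMBO library is assumed to vary like the vehicle libraries.

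**Figure D2:**
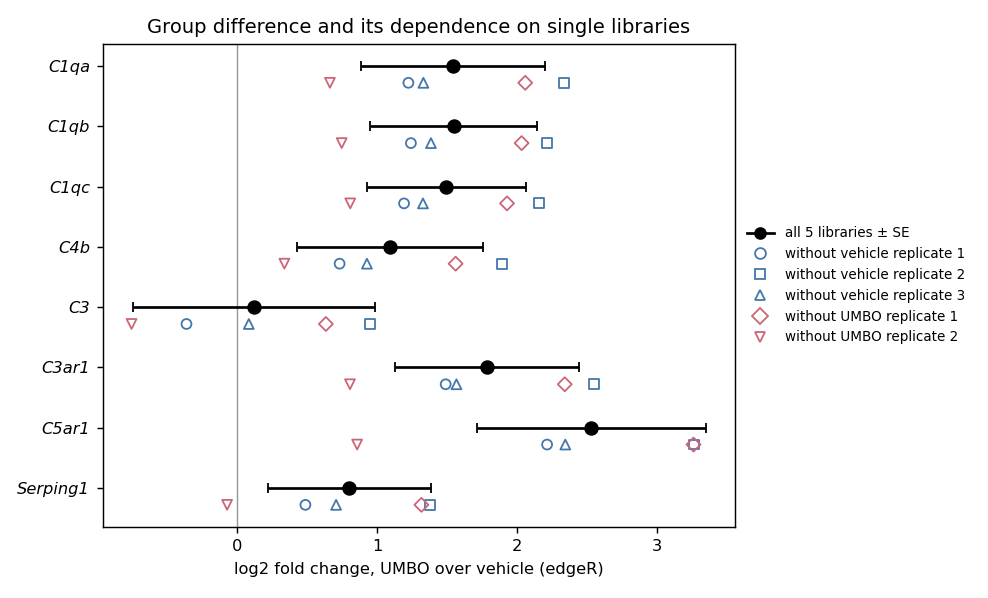
Log2 fold change of UMBO over vehicle for the 8 tested genes (edgeR; x axis, log2 scale). Filled points are all 5 libraries with bars of 1 standard error, derived from the F statistic of the test, and open symbols leave out 1 library each. Without UMBO replicate 2 the values of C3 and Serping1 fall below 0, and without vehicle replicate 2 all 8 move to the right.

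Ranked per kb of exon, the order was C1qa, C1qb, C1qc, C4b, Serping1, C3, C3ar1 and C5ar1, and it was the same in all 5 libraries. The mean levels of C1qa were 118 CPM per kb with vehicle and 343 with UMBO, and those of C5ar1 0.751 and 4.34. The ranges over the 5 libraries overlapped for all neighbors in this order: C1qa ranged from 58.8 to 500 CPM per kb and C1qb from 49.3 to 391. Among the vehicle libraries alone, only C4b (13.6 to 58.5 CPM per kb) and Serping1 (4.1 to 13.1) did not overlap.

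The mice themselves fell in nearly the same order for most members. From low to high, C1qa, C1qb, C4b, C3ar1 and Serping1 ran vehicle replicate 1, vehicle replicate 3, UMBO replicate 1, vehicle replicate 2 and UMBO replicate 2. C1qc and C5ar1 differed from this only by UMBO replicate 1 passing vehicle replicate 2. C3 ran vehicle replicate 1, UMBO replicate 1, vehicle replicate 3, UMBO replicate 2 and vehicle replicate 2. Relative to the vehicle mean, the median member was at -0.77, 1.03 and -0.21 log2 units with vehicle and at 0.91 and 2.18 with UMBO.

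Marker genes of several cell types moved with the members. The counts of markers below are from edgeR, where no gene passed adjustment. They are to be read against 50.9% of all genes with a log2 fold change above 0 and 5.30% higher with an unadjusted p under 0.05. The microglia marker Fcrls and the reactive astrocyte marker Gfap were among the genes that passed in DESeq2 (adjusted p = 5.23e-08 and 0.00416). The summed level of 10 monocyte and macrophage markers was 52.6 to 148.6 CPM with vehicle and 127.8 and 468.4 CPM with UMBO, an 8.91-fold range over the libraries, and its order of libraries was that of C1qa. All 10 of these were higher with UMBO, 2 of them with an unadjusted p under 0.05. The 8 microglia markers ranged less, from 324 to 455.5 CPM with vehicle to 610.5 and 733 CPM with UMBO. Of these 6 were higher and 5 had an unadjusted p under 0.05. The 10 interferon-response genes summed to 146.7 to 724.8 CPM with vehicle and 348.5 and 1494 CPM with UMBO, in the order of C1qa, with 10 higher and 0 at that p. The 8 reactive astrocyte markers summed to 333 to 894 CPM with vehicle and 1848 and 2940 CPM with UMBO, with 8 higher and 5 at that p. The 6 proliferation genes ran from 21.7 to 74.5 CPM with vehicle to 79.9 and 329.3 CPM with UMBO, with 6 higher and 6 at that p.

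Neutrophil markers were low, at 0.588 to 1.90 CPM with vehicle and 1.01 and 5.56 CPM with UMBO, with Ly6g at 0 in vehicle replicates 1 and 3 and 4 of 6 genes tested. Other brain cell types were clearly present: neuron markers summed to 4577 to 7267 CPM with vehicle and 4745 and 2229 CPM with UMBO, astrocyte markers to 3523 to 4938 and to 4563 and 2104, and oligodendrocyte markers to 4531 to 4643 and to 4845 and 4123. Choroid plexus markers ran from 796.5 to 825.9 CPM with vehicle to 844.2 and 487.5 CPM with UMBO. Endothelial markers ran from 170.2 to 232.6 CPM with vehicle to 288.3 and 257 CPM with UMBO. The part of these cell types in the complement values was not tested.

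Set against the microglia markers, the C1q chains were higher on average with all 5 libraries. That difference was much smaller when UMBO replicate 2 was left out. Set against the macrophage markers, the chains were slightly lower on average with all 5 libraries. In UMBO replicate 1 alone they lay just above the vehicle mean on that scale. The level of C1qa minus the mean of the microglia markers was 0.98, 2.58 and 1.23 log2 units with vehicle and 1.81 and 3.39 with UMBO. The difference of the means was 1.00, with 0.99 for C1qb and 0.96 for C1qc (2-sided exact permutation p = 0.3 each, where 10 groupings allow no p under 0.1). C5ar1 differed by 1.66 and C3ar1 by 1.19 (exact permutation p = 0.3 each), C4b by 0.62 (exact p = 0.5), Serping1 by 0.20 (exact p = 0.7) and C3 by -0.15 (exact p = 1). Without UMBO replicate 2 the differences were 0.216 for C1qa, 0.253 for C1qb, 0.309 for C1qc, 0.334 for C3ar1 and 0.372 for C5ar1 (exact permutation p = 1 each), and those of C4b and Serping1 were -0.077 and -0.586. Against the monocyte and macrophage markers the differences were -0.20 for C1qa, -0.22 for C1qb, -0.25 for C1qc, -0.01 for C3ar1 and 0.45 for C5ar1. C4b (-0.58) and Serping1 (-1.01) reached the smallest p the design allows, 0.1 by the exact permutation test, and C3 differed by -1.35 (exact p = 0.2). The direction of the C1q chains, C3ar1, C4b and Serping1 thus depended on the reference chosen.

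**Figure D3:**
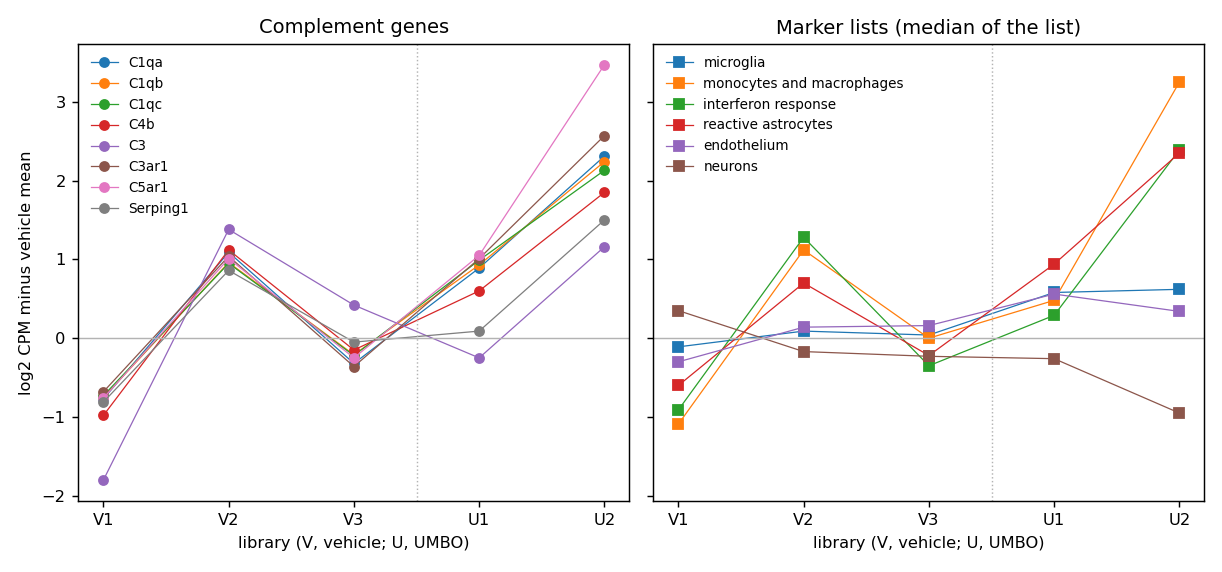
Level in each library relative to the vehicle mean (y axis, log2 CPM difference; x axis, libraries V1 to V3 for vehicle and U1 and U2 for UMBO) of the 8 tested complement genes (left) and of the median of each of 6 marker lists (right). The members and the microglia, macrophage, interferon and reactive astrocyte lists have their highest vehicle value in vehicle replicate 2. All of these are highest of all in UMBO replicate 2, except C3, whose highest library is vehicle replicate 2. For microglia the 2 UMBO values are close, at 0.58 and 0.62.

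Likeness of profile was measured as the root mean square difference of centred log2 CPM over the 5 libraries, among 23584 other tested genes. C1qb and C1qc were 0.055 apart and C1qa and C1qb 0.085. C1qa lay about as far from C3ar1 (0.112) as from C1qc (0.12), and further from C4b (0.228). C3 stood furthest from the rest, at 0.81 from C1qa and 1.103 from C5ar1. The nearest other genes to C1qa were Gm17981 (0.0586), the interferon-induced Oas2 (0.0789) and the inhibitory Fc receptor Fcgr2b (0.102). C1qb was nearest to Plxna4os1 (0.0585), Oas2 (0.085) and Cd84 (0.104), and C1qc to Plxna4os1 (0.0227), Tbx20 (0.0876) and Mdfi (0.0977). C3ar1 had Emp1 (0.047), Tyrobp (0.0538), the signaling adaptor of myeloid receptors, and Tnni2 (0.0893). C5ar1 had Tmem252 (0.104), Cd300ld (0.155) and Ms4a4a (0.161), and C4b had Fam167b (0.089), Gm43426 (0.107) and Lgals3bp (0.109). Serping1 lay near Gimap9 (0.0647), Tlr12 (0.0761) and Rplp0-ps1 (0.0785). The nearest genes to C3 were further off: Gm17122 (0.176), Timd4 (0.269) and 9230111E07Rik (0.328). With 5 libraries and many genes, close profiles are a description of these mice.

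The rest of the pathway was taken from a list of 52 other complement genes, of which 39 were tested. Of these 25 were higher and 14 lower, 4 were higher with an unadjusted p under 0.05 (Cd93, Itgam, Itgb2 and Cr2) and 0 lower, 0 passed adjustment, and the median log2 fold change was 0.32. Over all genes, 5.30% were higher and 2.06% lower at that p. The groups did not overlap for 9 higher and 3 lower with UMBO, against 11.5% and 11.4% of all genes. The 13 not tested included Mbl1 and Cpn2, which had 0 counts in every library.

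Receptors had the highest median of the 6 roles. All 8 that were tested were higher (median log2 fold change 1.18), where 50.9% of all genes had a log2 fold change above 0. Without UMBO replicate 2 all 8 were still above 0, with a median of 0.46. Cd93, an endothelial and myeloid protein first described as a C1q receptor, was at 6.53, 8.65 and 10.6 CPM with vehicle and 16.4 and 23.6 CPM with UMBO, and its groups did not overlap (log2 fold change 1.22, SE 0.28; edgeR unadjusted p = 0.00513, adjusted p = 0.497). Itgam, the alpha chain of complement receptor CR3, was at 7.86, 16.5 and 9.47 CPM with vehicle and 20.8 and 46.3 CPM with UMBO, also without overlap (log2 fold change 1.57, SE 0.45; edgeR unadjusted p = 0.0125). The values of Cd93 and Itgam were 0.94 and 0.88 without UMBO replicate 2. Most of the exon bases of Itgam (68.7%) are shared with Gm49368, which had 0 to 2 counts. Its partner Itgb2 had a log2 fold change of 1.39 (SE 0.56, edgeR unadjusted p = 0.0488) and Itgax, the alpha chain of CR4, 1.503 (SE 0.78, unadjusted p = 0.102). Cr2, the receptor for C3d on B cells, was low, at 0.555 to 0.789 CPM with vehicle and 0.866 and 2.02 CPM with UMBO (log2 fold change 1.13, SE 0.45, edgeR unadjusted p = 0.0468). Leaving out UMBO replicate 2 gave 0.598 for Itgb2, 0.514 for Itgax and 0.404 for Cr2 on the log2 scale, and without vehicle replicate 2 that of Itgax was 2.515.

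Most genes listed here as membrane regulators ran the other way: 10 of 11 tested were lower, and the median log2 fold change was -0.44. The 1 higher was Cd59a, at 0.33. Without UMBO replicate 2, 8 of the 11 were lower and 3 higher, with a median of -0.11. None of the 11 had an unadjusted p under 0.05. Cr1l, counted above with the receptors, also regulates complement on membranes and was higher (log2 fold change 0.38), so these counts depend on the listing. Csmd2, a neuronal protein with complement-control domains, was at 80.5, 59.9 and 80.7 CPM with vehicle and 59.4 and 44.7 CPM with UMBO (log2 fold change -0.50, SE 0.23; edgeR unadjusted p = 0.0683). Csmd1, its relative, differed by -0.85 (SE 0.46, unadjusted p = 0.115) and Cd46, a cofactor for cleavage of C3b and C4b, by -0.74 (SE 0.37, unadjusted p = 0.0904). Leaving out UMBO replicate 2 gave -0.31 for Csmd2, -0.306 for Csmd1 and -0.315 for Cd46, and leaving out UMBO replicate 1 gave -0.749, -1.756 and -1.388. On the opposite strand, 14.2% of the exon bases of Cd46 overlap A330023F24Rik. All 6 neuron markers had a log2 fold change below 0 and 0 of them had an unadjusted p under 0.05, and their part in these values was not tested.

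Among the other roles, 6 of 8 classical and lectin initiation genes, 2 of 3 convertase genes, 3 of 4 terminal genes and 5 of 5 fluid-phase regulators were higher, with medians of 0.27, 0.45, 0.34 and 0.32, and none had an unadjusted p under 0.05. Without UMBO replicate 2, 5 of 8, 1 of 3, 2 of 4 and 4 of 5 were higher. C2, the protease partner of C4b, had a log2 fold change of 1.40 (SE 0.87, edgeR unadjusted p = 0.158), 0.018 without UMBO replicate 2 and 2.499 without vehicle replicate 2, with 42.8% of its exon bases shared with Gm20547. Hc, which encodes C5, the source of the C5ar1 ligand, was at 0.803 to 1.23 CPM with vehicle and 1.22 and 3.04 CPM with UMBO (log2 fold change 1.15, SE 0.48, edgeR unadjusted p = 0.0526). The Hc value was 0.346 without UMBO replicate 2.

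**Figure D4:**
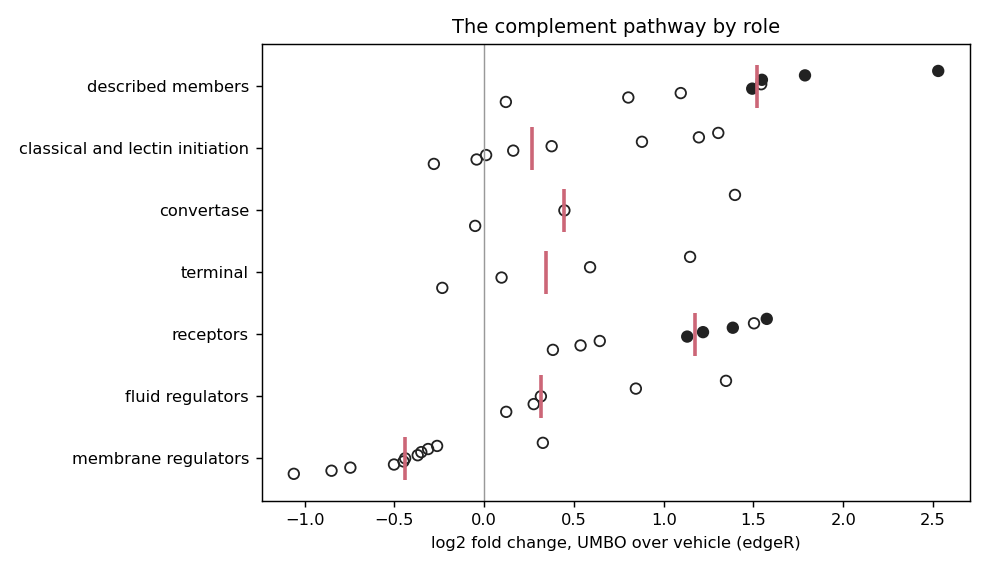
Log2 fold change of UMBO over vehicle (x axis, edgeR) for every tested complement gene, grouped by role (y axis). Each point is 1 gene, filled points have an unadjusted p under 0.05, and vertical bars are medians: 1.52 for the described members, 1.18 for the other receptors and -0.44 for the membrane regulators.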

How the data were processed

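Bulk mRNA of the right hemisphere was sequenced in 5 libraries (3 vehicle, 2 UMBO), grouped by the labels. The authors mapped reads with STAR 2.7.2a to GRCm38 and deposited raw read counts per gene, with no normalization; the annotation release and strand setting are not given in the sources used here. Symbols for 55480 of 55573 genes, positions and exon lengths are from GENCODE M21, and promoters from RefSeq. Counts were TMM-normalized, filtered with filterByExpr and tested over 23592 genes by edgeR 4.0.16 quasi-likelihood F-tests in R 4.3.3, without a block, Benjamini-Hochberg threshold 0.05, after a check on simulated data. The SE of a log2 fold change was derived from that test, as its absolute value divided by the square root of the F statistic. Profiles used log2 CPM with a prior count of 2. Single values were compared by exact permutation. Alternatives were other size factors, other filters, DESeq2 1.42.0, a replicate block and leaving out each library. Members and lists were chosen with earlier results of these data known. Named genes were all members, 3 wider-list genes by smallest unadjusted p in each direction, Itgam, Itgax, Itgb2, C2, C4a and Hc in any case, and the 3 nearest profiles of each member. Totals of 59736771 to 86164159 make counting error small except for genes such as Cfb; precision is set by the number of mice.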

Additional observations from a re-analysis of the deposited data

How the results depend on the processing

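With 2 UMBO mice, the values rest on single libraries. Leaving out 1 library at a time moved the median log2 fold change of the members between 0.706 and 2.186, members with an unadjusted p under 0.05 between 0 and 7, members with an adjusted p under 0.05 between 0 and 4, members with both UMBO libraries above every vehicle library between 2 and 7, all genes with an unadjusted p under 0.05 between 296 and 10165 (1738 with all libraries), genes passing adjustment between 0 and 4543, wider-list genes with an unadjusted p under 0.05 between 1 and 21, and the wider-list median between 0.049 and 0.437. The highest gene counts were without UMBO replicate 1, where 1 UMBO library remained. In fits without a UMBO library, the count of members above every vehicle library used only the 1 that remained. Groups separate more easily with fewer libraries, and the matching share of all genes is not given for these fits. Log2 fold changes ran from -0.752 (without UMBO replicate 2) to 0.947 (without vehicle replicate 2) for C3, which was also -0.36 without vehicle replicate 1, and from -0.07 to 1.378 for Serping1. Those of the other 6 tested members stayed above 0. C4a, at -0.05 with all libraries, was at 0.029 without vehicle replicate 3, 0.085 without UMBO replicate 1, 0.069 with library size alone and 0.023 with the replicate block, and -0.231 without UMBO replicate 2. Relative to microglia markers, C3 ran from -0.969 to 0.635, with 0.488 and 0.038 without vehicle replicates 2 and 3, C4b from -0.077 to 1.326, and Serping1 from -0.586 to 0.981, with -0.129 without vehicle replicate 1. Against macrophage markers instead, and with all 5 libraries, the differences were -0.2 for C1qa, -0.219 for C1qb, -0.245 for C1qc, -0.58 for C4b, -0.014 for C3ar1 and -1.007 for Serping1.

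Without a filter on low counts 4100 genes, and with DESeq2 2738 genes, had an unadjusted p under 0.05; DESeq2 passed 39 genes after adjustment (26 higher, 13 lower) and none of the members. Wider-list genes at that p numbered 11 without a filter and 2 at 1 CPM or more in 2 libraries. Library size alone moved the median of all genes from 0.012 to 0.125, with 1502 genes higher and 395 lower at that p, against 1251 and 487; without vehicle replicate 3 these were 217 and 215.

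Replicate numbers 1 and 2 occur in both groups, but nothing says that a number marks a shared litter or day. Deviations of same-numbered libraries correlated at 0.453 and 0.76, and with 2 UMBO libraries these mirror each other. With the number as a replicate block, 7 members had an unadjusted and 7 an adjusted p under 0.05 (all tested but C3), as did 6134 and 2337 of all genes (9.91% after adjustment) and, unadjusted, 14 of the wider list. In that fit vehicle replicate 3 has no UMBO library of its number, so the group difference rests on replicates 1 and 2 alone. The block terms also leave very little replication from which to estimate the spread among mice, so these counts are not firm. The log2 fold change of C3 was 0.645 there. The cause of the changes in the counts was not tested further.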
